A study of Mus musculus with 10 samples.

Results

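The genes described here are 10 mesothelial and epithelial genes, chosen by name with earlier results of these data known. They include the keratins Krt18, Krt8 and Krt19, the surface protein genes Msln and Upk3b and the transcription factor genes Wt1 and Ehf. The others are the cytoskeletal linker gene Eppk1, the tight junction gene F11r and the enzyme gene Aldh1a1. Together these are 10 of the 54532 genes in the expression table. RNA sequencing had been done on primary mouse peritoneal macrophages in 10 libraries, 4 labelled young and wild type (A, B, C and E), 3 labelled aged and wild type (3, 4 and 6) and 3 labelled aged and Trem1-/- (1, 2 and 3). No group was young and Trem1-/-, and the labels give no age in months, sex, strain, batch, sorting step or design of the Trem1 deletion. Nor do they tie each library to a mouse of its own, so the p-values below cover only sample-to-sample spread and that spread may be technical.

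The peritoneal cavity is lined by mesothelium, a single flat layer of cells of mesodermal origin that has both epithelial traits, such as keratin filaments and tight junctions, and mesothelial ones, such as mesothelin, uroplakin 3b and the transcription factor WT1. Keratin 8 and keratin 18 pair with each other into the intermediate filaments of simple epithelia and mesothelium, and keratin 19 is a further partner of keratin 8. EHF and high levels of epiplakin are features of glandular and surface epithelia, whereas F11R (junctional adhesion molecule A) and the retinaldehyde dehydrogenase ALDH1A1 are also found in leukocytes and other cell types. Cells taken from the peritoneal cavity can include detached lining cells. In bulk RNA, more cells of a type and more RNA per cell cannot be told apart.

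Recovered reads ran from 2663744 to 5603498 per library, so 3 reads, the limit that a count of 0 allows, correspond to 1.85 to 3.84 normalized counts. All 9 genes of a resident macrophage list (among them Adgre1, Lyz2, Csf1r and F5) were read in each library. Their summed level was 81856 to 90114 normalized counts in the young libraries, 25069 to 40432 in the aged wild-type ones and 71952 to 91568 in those labelled Trem1-/-. Trem1 itself was read in all 10 libraries, at 8.005 to 24.4 normalized counts in the young libraries, 15.3 to 64.0 in the aged wild-type ones and 13.8 to 105.8 in those labelled Trem1-/-, so transcript counts do not separate the genotypes. The aged wild-type libraries also held more reads of the non-coding RNA Gm26917 (8.38 to 12.9% of reads, against 4.999 to 5.70% in the others) and of mitochondrial genes (3.17 to 5.26%, against 1.19 to 2.39%). Young C stood apart from the other young libraries in the members and in several markers of other cells. Fold changes of Krt19 and Upk3b in aged against young wild type are given with and without it. Most other values are given only with it.

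Together the 10 genes were a small part of each library. Their summed level was 22.7, 13.5, 149 and 23.2 normalized counts in young A, B, C and E, 627, 944 and 412 in aged wild-type 3, 4 and 6, and 29.6, 212 and 150.3 in Trem1-/- 1, 2 and 3. Each aged wild-type library lay above all 7 others, while young C lay close to Trem1-/- 3 and below Trem1-/- 2. As a share of reads the sum was highest in aged wild-type 4, with 865 reads or 273 RPM (95% Wilson interval 255 to 291), and lowest in young B, with 22 reads or 3.93 RPM (2.59 to 5.94). The 3 aged wild-type libraries were high through different genes. Krt8 and Krt18 gave 68.8% of the member reads in aged wild-type 4 but 28.3% in aged wild-type 6, and Krt19, Msln, Upk3b and Wt1 gave 1.503% in aged wild-type 4 but 32.7% in aged wild-type 6. In young C and Trem1-/- 2 these last 4 genes gave 50% and 49.1% of the member reads.

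**Figure D1:**
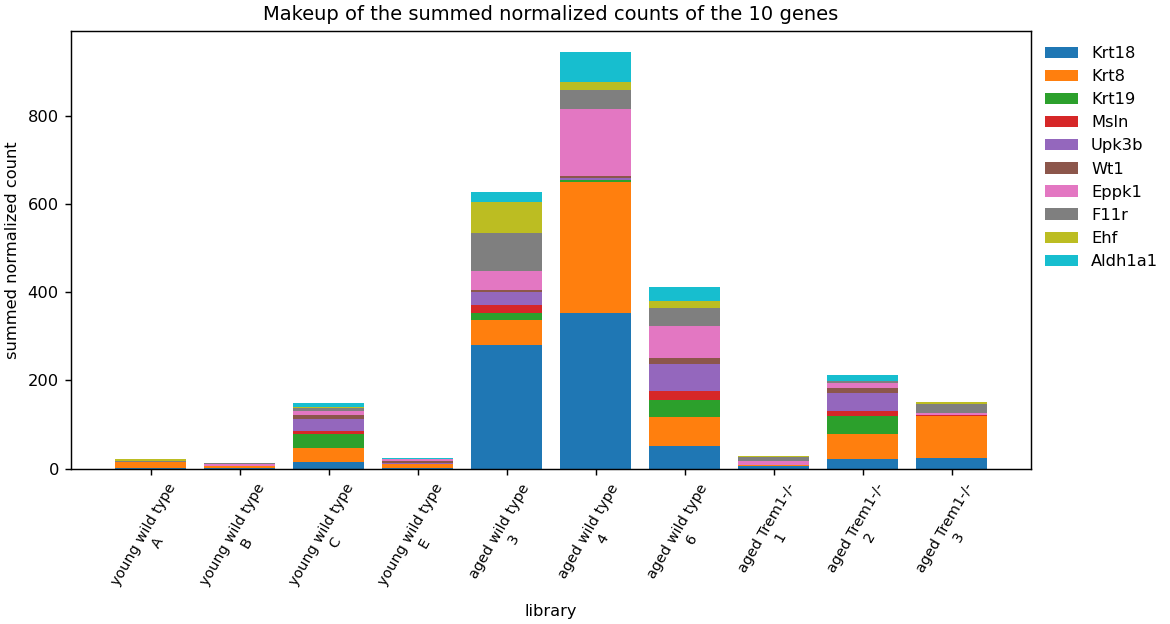
Stacked bars of the normalized counts of the 10 members in each library (1 bar per library, linear axis from 0), coloured by gene. The whole bar is 412 to 944 in the aged wild-type libraries and at most 212 in the others, and Krt18 and Krt8 make up most of the bar of aged wild-type 4.

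In the paragraphs that follow, values are normalized counts in the order young wild-type A, B, C and E, then aged wild-type 3, 4 and 6, then Trem1-/- 1, 2 and 3. A fold change is the difference of mean log2(normalized count + 1) between groups, with its standard error (SE) and the adjusted p of limma over all 11506 genes tested. On this scale every library counts alike, so for a gene with 1 high library in a group, such as Krt19 or Upk3b, the value can lie far from the fold of the group means. Genes were tested where the mean over the 10 libraries was at least 10 normalized counts. Of the 10 members 8 passed, and Msln (mean 5.82) and Wt1 (mean 5.18) did not. Of the 8, all but Krt8 had a young mean under 10 and so passed through their level in the aged libraries or in single libraries. Their counts of calls are therefore descriptions of the members that passed, not evidence about all 10.

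Krt18, the type I keratin of simple epithelia, had the highest aged wild-type level of the members. It was at 1.74, 2.46, 14.4 and 2.32 in young wild type, 280.3, 352 and 50.3 in aged wild type and 5.11, 22.4 and 25.2 in the libraries labelled Trem1-/-. All 3 aged wild-type libraries lay above the other 7, with aged wild-type 6 the nearest to them. Krt8, its type II partner, was at 13.1, 3.08, 33.6 and 8.14, then 56.3, 297 and 66.5, then 3.07, 55.3 and 94.1. The aged wild-type libraries lay above the young ones, but Trem1-/- 3 lay above aged wild-type 3 and 6. Trem1-/- 1 and young B were the lowest libraries and level with each other, on 3 and 5 reads. The partners were not read in a fixed ratio. Krt18 exceeded Krt8 in aged wild-type 3 and 4 and in Trem1-/- 1, and Krt8 exceeded Krt18 in the other 7 libraries (these are counts, not levels per length). The order rests on few reads in Trem1-/- 1 (5 of Krt18 against 3 of Krt8) and in young B (4 against 5).

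Krt8 and Krt18 lie next to each other on chromosome 15 (GRCm38). Krt8 spans 101996698 to 102004482 on the minus strand and Krt18 spans 102028180 to 102032027 on the plus strand, 23697 bases apart. The promoter sequences of these neighbours are shown for comparison with those of Upk3b and F11r, which stand for the 2 library patterns described below. They are the parts of the RefSeq promoter windows (GRCm38.p6) that lie before the gene start in both RefSeq and GENCODE, at chr15:102004483-102004592 (minus strand), chr15:102027966-102028179 (plus strand), chr5:136038246-136038495 (plus strand) and chr1:171437311-171437534 (plus strand). Capitals mark a match to 1 of the motifs spelled out after the sequences.
Krt8: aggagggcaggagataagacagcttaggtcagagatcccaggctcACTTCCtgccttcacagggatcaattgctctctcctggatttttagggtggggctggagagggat
Krt18: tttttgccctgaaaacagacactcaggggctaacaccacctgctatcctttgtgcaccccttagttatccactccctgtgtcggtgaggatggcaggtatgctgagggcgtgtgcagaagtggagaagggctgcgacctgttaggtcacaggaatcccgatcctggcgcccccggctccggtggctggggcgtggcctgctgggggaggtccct
Upk3b: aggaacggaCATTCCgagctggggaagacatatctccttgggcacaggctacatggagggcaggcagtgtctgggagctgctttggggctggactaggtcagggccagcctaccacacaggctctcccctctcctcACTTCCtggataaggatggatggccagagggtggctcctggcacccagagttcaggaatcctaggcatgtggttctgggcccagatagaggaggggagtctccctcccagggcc
F11r: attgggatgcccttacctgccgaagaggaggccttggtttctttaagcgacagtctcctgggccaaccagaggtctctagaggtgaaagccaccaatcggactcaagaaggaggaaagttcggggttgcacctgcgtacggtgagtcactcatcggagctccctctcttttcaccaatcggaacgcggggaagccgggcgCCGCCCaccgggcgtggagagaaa
The search covered windows of 270 bases, from 250 before to 20 after the RefSeq start, for 3 motifs on both strands and TATAAA on the gene's strand, and no match overlapped another. GGAAGT, the core that ETS family factors such as EHF recognise, was found at position -205 of Krt8 and -114 of Upk3b (both on the reverse strand, read as ACTTCC) and is in 21.7% of 32851 promoter windows of that length. GGAATG, the core bound by TEAD factors, was found at -241 of Upk3b and at -168 of an Aldh1a1 window not shown (both read as CATTCC). It is in 13.5% of windows. GGGCGG, the GC box, was found at -50 of F11r (read as CCGCCC) and is in 34.15% of windows. TATAAA was found at -1 of Krt8, beyond the stretch shown, and is in 7.91% of windows, and Krt18 held none of the 4 motifs. Of the 10 members 5 had a promoter in the table, the fifth being Aldh1a1.

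Krt19, the smallest keratin, which pairs with keratin 8, behaved differently from Krt18. It was at 0, 0.616, 31.2 and 0 in young wild type, 16.6, 4.36 and 39.5 in aged wild type and 0, 42.5 and 0 in the libraries labelled Trem1-/-. Its highest library was Trem1-/- 2, then aged wild-type 6 and young C, and 4 libraries held no read of it. The groups overlapped in every comparison.

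Upk3b, a uroplakin of the mesothelial surface, followed the same libraries as Krt19. It was at 0, 0, 25.2 and 2.32, then 29.4, 4.36 and 61.1, then 1.02, 40.9 and 1.15. Msln, which encodes the mesothelial surface protein mesothelin, was at 0, 0, 7.21 and 1.16, then 17.9, 1.09 and 18.9, then 0, 9.61 and 2.29. Wt1, a transcription factor of mesothelium and of several mesoderm-derived tissues, was at 0.872, 0.616, 10.8 and 3.49, then 5.12, 4.36 and 15.3, then 0, 11.2 and 0. For each of these genes young C and Trem1-/- 2 reached the aged wild-type range, and aged wild-type 4 was the lowest aged wild-type library. For Wt1, aged wild-type 3 and aged wild-type 4 held 4 reads each, so their order comes only from the scaling for depth.

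Krt19, Upk3b, Msln and Wt1 had their 4 highest values in the same 4 libraries: young C, aged wild-type 3, aged wild-type 6 and Trem1-/- 2. For Wt1 the place of aged wild-type 3 is not resolved, since it and aged wild-type 4 held 4 reads each and young E held 3. Of all 11506 genes tested, 67 (0.582%) had their 4 highest values there, Krt19 and Upk3b among them, while Msln and Wt1 were below the level for testing. This grouping was made after the values were seen, so its count is a description. The sum of the 4 genes was 0.872, 1.23, 74.5 and 6.97 in young wild type, 69.1, 14.2 and 135 in aged wild type and 1.02, 104 and 3.44 in the libraries labelled Trem1-/-.

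Eppk1, which encodes epiplakin, a large protein that binds keratin filaments, was at 0, 3.08, 7.21 and 4.65 in young wild type, 42.2, 152 and 71.0 in aged wild type and 9.20, 12.0 and 3.44 in the libraries labelled Trem1-/-. F11r, which encodes a tight junction adhesion protein that also binds the leukocyte integrin LFA-1, was at 0.872, 2.46, 7.21 and 0, then 85.8, 43.6 and 42.2, then 9.20, 5.61 and 20.6. The lowest aged wild-type library was above the highest of the other 7 for both genes. Ehf, an ETS family transcription factor of epithelia, was at 6.10, 1.23, 3.60 and 0, then 70.4, 17.5 and 15.3, then 2.04, 0 and 3.44. Aldh1a1, which oxidises retinaldehyde to retinoic acid, was at 0, 0, 8.41 and 1.16, then 23.0, 67.7 and 32.3, then 0, 12.8 and 0. Ehf and Aldh1a1 likewise had no overlap between aged wild type and the other libraries.

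Krt18, Eppk1, F11r, Ehf and Aldh1a1 thus had their 3 highest values in the 3 aged wild-type libraries, as did 1226 (10.7%) of the genes tested. The library that led within aged wild type differed between them. It was aged wild-type 4 for Krt18, Krt8, Eppk1 and Aldh1a1, aged wild-type 3 for F11r and Ehf, and aged wild-type 6 for Krt19, Msln, Upk3b and Wt1. Young C was the highest young library for 9 of the 10 members, Ehf being highest in young A. Among the libraries labelled Trem1-/-, replicate 2 was the highest for 6 members and replicate 3 for the other 4 (Krt18, Krt8, F11r and Ehf).

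**Figure D2:**
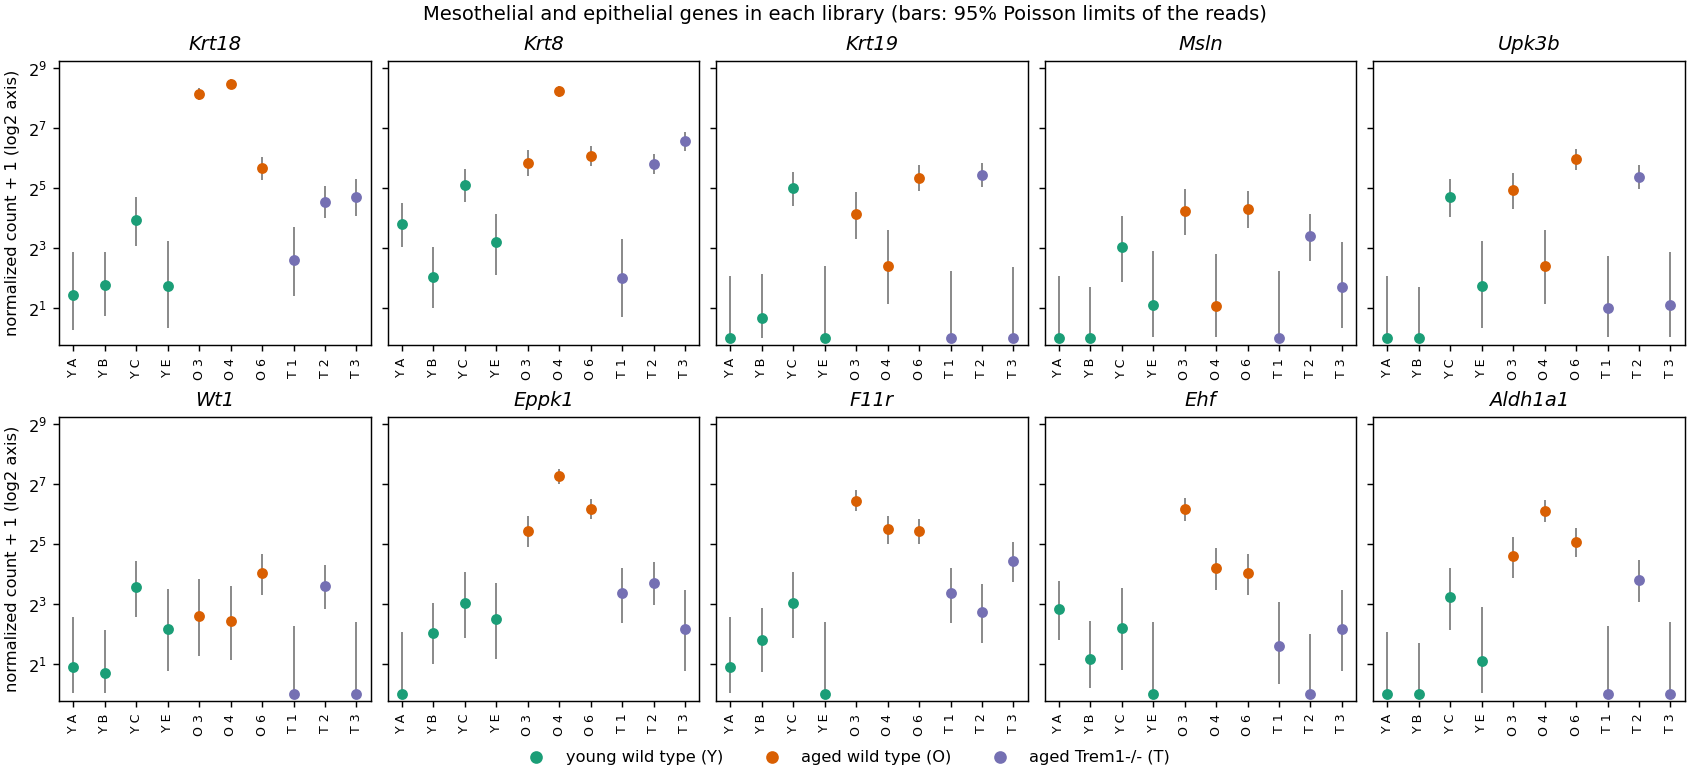
Normalized count + 1 of each of the 10 members by library (log2 axis), with 1 point per library coloured by group (Y young wild type, O aged wild type, T Trem1-/-) and bars for the 95% Poisson limits of its reads, which cover counting error only. Krt18, Eppk1, F11r, Ehf and Aldh1a1 are highest in the 3 aged wild-type libraries. Krt19, Msln, Upk3b and Wt1 are also high in young C and Trem1-/- 2 and low in aged wild-type 4. Wt1 is about as low in aged wild-type 3.

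Per kilobase of summed exon length, the levels of different members can be compared. In aged wild type the mean level per kilobase was 158 ± 110 normalized counts (SD, n = 3) for Krt18, 71.4 ± 69.5 for Krt8 and 21.5 ± 9.29 for F11r. The next levels per kilobase were 10.9 ± 9.62 for Krt19, 8.96 ± 8.05 for Upk3b and 8.31 ± 4.77 for Aldh1a1. Eppk1 was at 7.16 ± 4.601, Ehf at 6.17 ± 5.598, Msln at 4.12 ± 3.26 and Wt1 at 1.33 ± 0.983. Each of these differed from its neighbour in the order by less than the larger of their SDs, except F11r from Krt19. Distant members did not overlap: the lowest Krt18 library was at 35.0 per kilobase and the highest Wt1 library at 2.47. In young wild type Krt8 led with 7.39 ± 6.84 per kilobase (SD, n = 4), followed by Krt19 with 4.29 ± 8.36 and Krt18 with 3.64 ± 4.26. The young Krt19 level rests on young C, at 16.8 per kilobase, and was 0 in young A and E. In the libraries labelled Trem1-/- the order opened with Krt8 at 25.9 ± 23.3 (SD, n = 3), Krt18 at 12.2 ± 7.59 and Krt19 at 7.63 ± 13.2.

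Some member counts share sequence or exons with other genes. Of the 50-base stretches of Krt8 transcripts, 29.7% also occur in Krt8-ps or Gm36026, and Gm36026 overlaps Krt8 exons by 101 bases on the opposite strand. Their own values were at most 2.18 and 2.56 normalized counts in any library. Eppk1 shares 5.95% of its stretches with BC024139 and Plec (plectin), and its exons overlap BC024139 on the same strand by 679 bases. BC024139 was at most 2.61 normalized counts, while Plec was at 3941 to 5546 in the 10 libraries. Aldh1a1 shares 3.06% of its stretches with Aldh1a7, which was read only in aged wild type, at 1.28, 6.55 and 5.39. Whether counting used strand is not given in the sources used here, which bears on the opposite-strand overlap of Krt8. How reads shared between genes were assigned is not given either, so the Krt8, Eppk1 and Aldh1a1 values are uncertain to that extent.

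The first comparison set aged against young wild-type macrophage preparations. Krt18 rose most among the members, by 5.20 ± 0.78 log2 units (SE, adjusted p = 0.000713 by limma). Eppk1 rose by 4.40 ± 0.70 (0.00094), F11r by 4.35 ± 0.67 (0.000792) and Aldh1a1 by 4.16 ± 1.05 (0.0107). Ehf rose by 3.25 ± 0.84 (0.0120) and Krt8 by 3.17 ± 1.02 (0.0330). These 6 of the 8 members tested passed the test as higher, beside 14.3% of all genes tested, and none as lower, beside 19.0%. On the recovered reads edgeR called the same 6, and DESeq2 called 5, without Aldh1a1 (adjusted p = 0.162). The same 6 had every aged wild-type library above every young one, beside 18.4% of all genes.

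Krt19 and Upk3b did not pass, at 2.54 ± 1.52 (adjusted p = 0.222 by limma) and 2.82 ± 1.37 (0.134). For Krt19 the log2 fold change was 1.61 by edgeR and 1.35 by DESeq2, and for Upk3b 2.48 and 2.22, none of them past the threshold. Without a filter on low values, Msln was at 2.17 ± 0.92 (0.160) and Wt1 at 1.19 ± 0.86 (0.439). Young C bears on these members. Without it the fold change was 3.86 for Upk3b, which then passed (adjusted p = 0.0429 by limma), and 3.74 for Krt19 (0.0686). In the authors' deposited table of this comparison, 5 members had an adjusted p under 0.05 by DESeq2, and Aldh1a1 had a log2 fold change of 4.14 with an adjusted p of 0.160. The DESeq2 fit on recovered reads started from the same deposited counts and gave nearly the same values, so they are not separate results. Krt8 lost its call without young A, B or E or aged wild-type 4 or 6 (adjusted p up to 0.104 by limma). Ehf without aged wild-type 3 and Aldh1a1 without aged wild-type 4 no longer reached the minimum level for testing.

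The second comparison set the libraries labelled Trem1-/- against aged wild type. Aldh1a1 fell by 3.99 ± 1.13 log2 units (SE, adjusted p = 0.0312 by limma), Ehf fell by 3.54 ± 0.90 (0.0207) and Krt18 fell by 3.47 ± 0.84 (0.0169). Eppk1 fell by 3.22 ± 0.75 (0.0147) and F11r fell by 2.28 ± 0.72 (0.0472). These 5 of the 8 members tested passed as lower, beside 6.82% of all genes tested, and none as higher, beside 11.5%. On the recovered reads edgeR and DESeq2 each called 4 of them, without Aldh1a1 (adjusted p = 0.0562 and 0.360). All 5 had every Trem1-/- library below every aged wild-type one, beside 15.5% of all genes. The comparison shares the aged wild-type libraries with the first, so the directions of both are not independent.

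Krt8, Krt19 and Upk3b did not pass in the second comparison, with log2 differences of -1.91 ± 1.09 (adjusted p = 0.242 by limma), -2.15 ± 1.63 (0.379) and -1.93 ± 1.46 (0.379). By edgeR and DESeq2 the Krt19 value was only -0.47 and -0.51 and the Upk3b value -1.09 and -1.14. The Krt8 value came to -0.52 without Trem1-/- 1 and -2.79 without Trem1-/- 3. Without Trem1-/- 2 the Krt19 and Upk3b values were -3.97 and -3.38, still not past the threshold (0.112 and 0.149). Without a filter, Msln was at -1.50 ± 0.99 (0.474) and Wt1 at -1.82 ± 0.92 (0.303). Of the 5 calls, that of Eppk1 held whichever library was left out (adjusted p up to 0.0449 by limma). Krt18 lost its call without aged wild-type 3 (0.0660) or Trem1-/- 1 (0.0607), Ehf without Trem1-/- 2 (0.0687), Aldh1a1 without aged wild-type 3 or 6 or Trem1-/- 1 or 3 (up to 0.0994), and F11r without young A or B, any aged wild-type library or Trem1-/- 1 or 2 (up to 0.161).

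The third comparison set the libraries labelled Trem1-/- against young wild type. None of the 8 members tested passed, beside 0.921% of all genes (0.591% higher and 0.330% lower), with limma. At an unadjusted p under 0.05 limma gave 2, Krt18 and F11r, and edgeR and DESeq2 on the recovered reads called 0 with adjustment. All 10 members overlapped between these groups, beside 8.05% of genes with every Trem1-/- library above and 7.72% with every one below. F11r had the largest difference, 2.07 ± 0.67 log2 units (SE, adjusted p = 0.180 by limma), followed by Krt18 at 1.73 ± 0.78, Krt8 at 1.27 ± 1.02 and Eppk1 at 1.18 ± 0.70. Upk3b was at 0.89 ± 1.37, Krt19 at 0.39 ± 1.52, Aldh1a1 at 0.18 ± 1.05 and Ehf at -0.29 ± 0.84. Several of these moved with the tool: by edgeR Krt8 was at 1.92, Upk3b at 1.38, Krt19 at 1.14, Aldh1a1 at 1.30 and Ehf at -0.69. With standard errors of this size a difference of several fold could go undetected, so the values do not show equal levels.

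**Figure D3:**
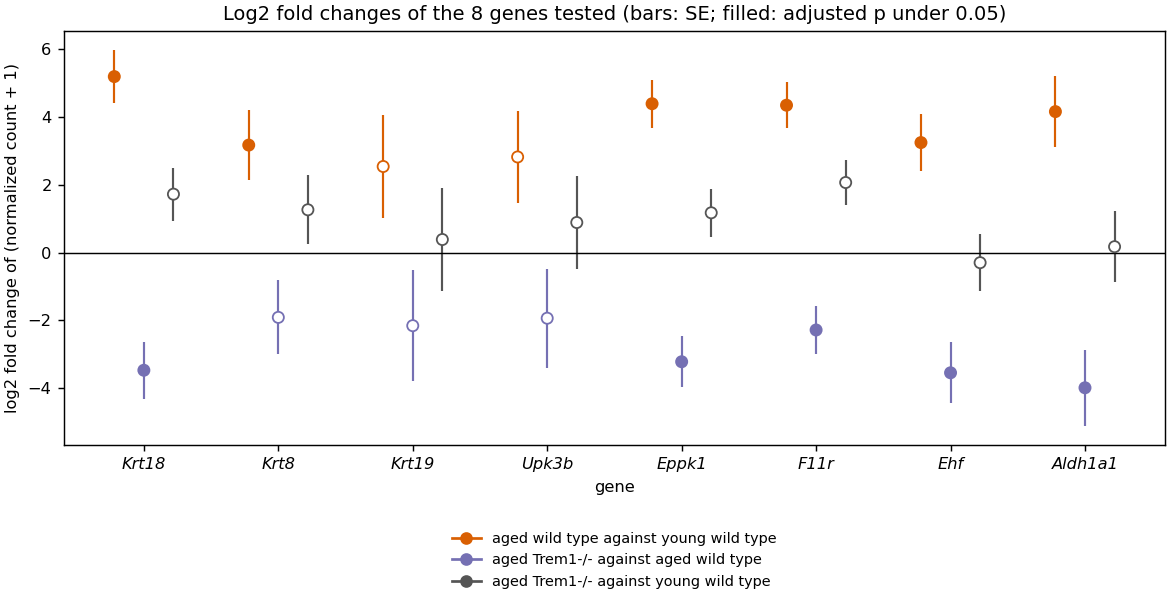
Log2 fold changes with 1 standard error for the 8 members tested, in the 3 comparisons (limma, log2(normalized count + 1)). Filled points passed an adjusted p of 0.05 and open points did not. The comparisons share groups, so they are not independent. Krt18, Eppk1, F11r, Ehf and Aldh1a1 are filled in the first and second comparison, Krt8 in the first, and none in the third.

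The profiles of the members over the 10 libraries were compared by the root mean square difference of their centred log2(normalized count + 1) values, where a smaller value means a more alike profile. Profiles that vary little, as at low counts, also give smaller values. The root mean square of the centred profile itself was 1.44 for Wt1 and 1.64 for Msln, against 2.32 for Krt19 and 2.41 for Krt18. The nearest pair was Krt19 and Upk3b at 0.71, then Msln and Upk3b at 0.81 and Wt1 and Msln at 1.01. Krt18 was nearest to F11r (1.05), Eppk1 to Aldh1a1 (1.07) and Ehf to F11r (1.25). Krt8 was nearest to Krt18, its filament partner, at 1.30, and the farthest pair was Krt19 and Ehf at 2.48. All members come from the same 10 libraries, so the distances share depth and library make-up.

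**Figure D4:**
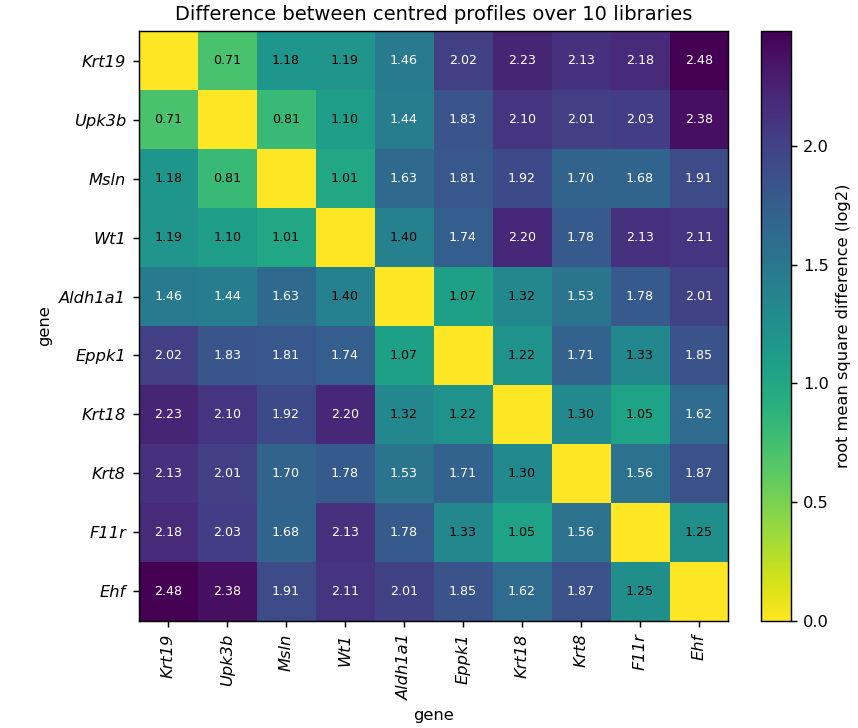
Root mean square difference of centred log2(normalized count + 1) profiles for each pair of members over the 10 libraries, from yellow (0, alike) to dark violet (far apart). Krt19, Msln, Upk3b and Wt1 form a block of smaller distances (0.71 to 1.19), and Krt19 and Ehf are farthest apart (2.48).

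Outside the members, the genes nearest to the mean profile of the 8 members tested were 3425401B19Rik at 0.73, the T cell co-receptor gene Cd8a at 0.80, and Clu (clusterin) and D10Wsu102e, both at 0.87. The immediate-early gene Fosb followed at 0.88, then the chemokine gene Ccl5, the T cell kinase gene Lck and Pcbp4, each at 0.91. For single members, the nearest gene was Serping1, a complement inhibitor, for both Krt19 (0.51) and Upk3b (0.58). It was 1810046K07Rik for F11r (0.47), Cyp39a1 for Ehf (0.54), AF067061 for Krt18 (0.87), Clu for Aldh1a1 (0.89), 3425401B19Rik for Eppk1 (0.96) and Pigr, the polymeric immunoglobulin receptor of mucosal epithelia, for Krt8 (0.97).

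Of 15 other mesothelial genes 6 were tested, and beside 33.3% of all genes 1 passed in aged against young wild type. That was Aldh1a2, a further retinaldehyde dehydrogenase, which fell by 1.44 ± 0.20 log2 units (SE, adjusted p = 0.000518 by limma) and was higher in the libraries labelled Trem1-/- than in aged wild type by 0.82 ± 0.22 (0.0246). The median of the 6 was 2.19, against -0.02 over all genes tested. Igfbp5 and Efemp1 were at 3.09 ± 1.70 and 3.24 ± 1.44 without passing (adjusted p = 0.185 and 0.106 by limma). The keratin gene Krt7 went the other way, at -0.60 ± 0.32, also without passing (adjusted p = 0.172 by limma). Its mean was 20.4 normalized counts in young wild type and 13.2 in aged wild type. Of the 6 genes tested, 4 had their 4 highest values in young C, aged wild-type 3 and 6 and Trem1-/- 2, the libraries where Krt19, Msln, Upk3b and Wt1 were highest, beside 0.582% of all genes tested. Over the whole list, with genes below the level for testing, it was 11 of 15. The same held for 5 of 6 fibroblast genes tested, among them Col3a1 and Dcn, and 5 of 7 mast cell genes tested. The 4 mesothelial and 5 fibroblast genes passed the filter through those libraries, so these shares and the median describe only genes that passed.

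Of 25 other epithelial and junction genes 6 were tested, and none of the 25 had its 4 highest values in those 4 libraries. In aged against young wild type 1 of the 6 rose, beside 14.3% of all genes, and 2 fell, beside 19.0%. Marveld2 rose, while Jup (plakoglobin) fell by 1.11 ± 0.16 log2 units and Ocln (occludin) fell by 1.41 ± 0.27 (SE, adjusted p = 0.000539 and 0.00261 by limma). In the libraries labelled Trem1-/- against aged wild type 3 of the 6 passed as higher, beside 11.5% of all genes: Jup, Ocln and Tjp1 (ZO-1), by 1.07 ± 0.17, 1.47 ± 0.29 and 1.87 ± 0.31. These 3 genes thus went against Krt18, Eppk1, F11r and Ehf in that comparison. In both comparisons Jup and Ocln moved in the direction of the 9 resident macrophage genes, of which 9 passed as lower in the first and 8 as higher in the second. Tjp1 did not pass in the first (-0.19 ± 0.29, adjusted p = 0.657 by limma). Which cells these transcripts came from was not tested. Epcam and Cdh1, 2 of the 25 named after their values were seen, were low and below the level for testing. Both were highest in aged wild-type 4 (21.8 and 12.0 normalized counts), where Krt18, Krt8, Eppk1 and Aldh1a1 were also highest. Aged wild-type 6 was close to it (20.7 and 9.88), but aged wild-type 3 was at 3.84 and 5.12. In the young and Trem1-/- libraries Epcam was at 0 to 14.4 and Cdh1 at 0 to 9.61. Of the 4 genes of the list with the largest mean, Ppl was also highest in aged wild-type 4 (310). Jup was highest in young B (319), Tjp1 in Trem1-/- 2 (233) and Ocln in Trem1-/- 3 (104). Cldn7 and Pkp2, also below the level for testing, had their 3 highest values in the 3 aged wild-type libraries. They were 2 of the 25 (8%), beside 10.7% of all genes tested. Their values there, 2.56 to 3.27 and 1.80 to 3.84, were no higher than 3 reads of the library.

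Around F11r, 7 of 11 genes for junction partners and ligands were tested. In aged against young wild type 1 passed as higher and 3 as lower, beside 14.3% and 19.0% of all genes. Itgal, the alpha chain of LFA-1, rose by 1.65 ± 0.25 log2 units (SE, adjusted p = 0.000732 by limma), while its beta chain Itgb2 fell by 1.25 ± 0.14 (0.000219), Jam2 fell by 0.92 ± 0.25 (0.0149) and Ocln fell as above. In the libraries labelled Trem1-/- against aged wild type Itgal fell by 1.21 ± 0.27 (0.0117), and 5 of the 7 were higher (Itgb2, Ocln, Jam2, Afdn and Tjp1), beside 6.82% of all genes lower and 11.5% higher.

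Around Aldh1a1, 10 of 15 genes of retinoic acid synthesis and response were tested. In aged against young wild type 1 rose (Rdh11), beside 14.3% of all genes, and 5 fell, beside 19.0%: the nuclear receptor genes Rxra, Rara and Rarg, the retinal reductase gene Dhrs3 and Aldh1a2. Rxra fell by 1.24 ± 0.12 log2 units (SE, adjusted p = 0.000126 by limma). In the libraries labelled Trem1-/- against aged wild type the same 5 were higher, with Rarb as a sixth, beside 11.5% of all genes, and Rdh11 was lower, beside 6.82%. Aldh1a1 and Aldh1a2, which catalyse the same step, thus moved in opposite directions in both comparisons by limma, while the Aldh1a1 calls were lost with DESeq2 in both and with edgeR in the second.

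The aged wild-type libraries differed in the markers of several cell types, and their part in the member results was not tested. All 8 B cell genes and all 7 T cell genes passed as higher in aged than in young wild type, beside 14.3% of all genes. The B cell sum was 1234 to 2797 normalized counts in the young libraries, 7053 to 10540 in the aged wild-type ones and 2776 to 6111 in those labelled Trem1-/-. The T cell sum was 127 to 251, 596 to 951 and 413 to 504 in the same order. All 9 resident macrophage genes passed as lower in aged wild type, beside 19.0% of all genes. The fibroblast sum was 31.4, 24.6, 449 and 19.8 in young wild type, 415, 82.9 and 482 in aged wild type and 10.2, 375 and 11.5 in the libraries labelled Trem1-/-, the libraries in which Krt19, Msln, Upk3b and Wt1 were also high or low. The erythroid sum reached 23658 in aged wild-type 4, where Krt18, Krt8, Eppk1 and Aldh1a1 were highest, against 9.30 to 751 in the other 9 libraries. The mast cell sum was 1411 in young C and 1976 in Trem1-/- 2, against 242 to 440 in the other young and Trem1-/- libraries, and 941 to 2268 in aged wild type.

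**Figure D5:**
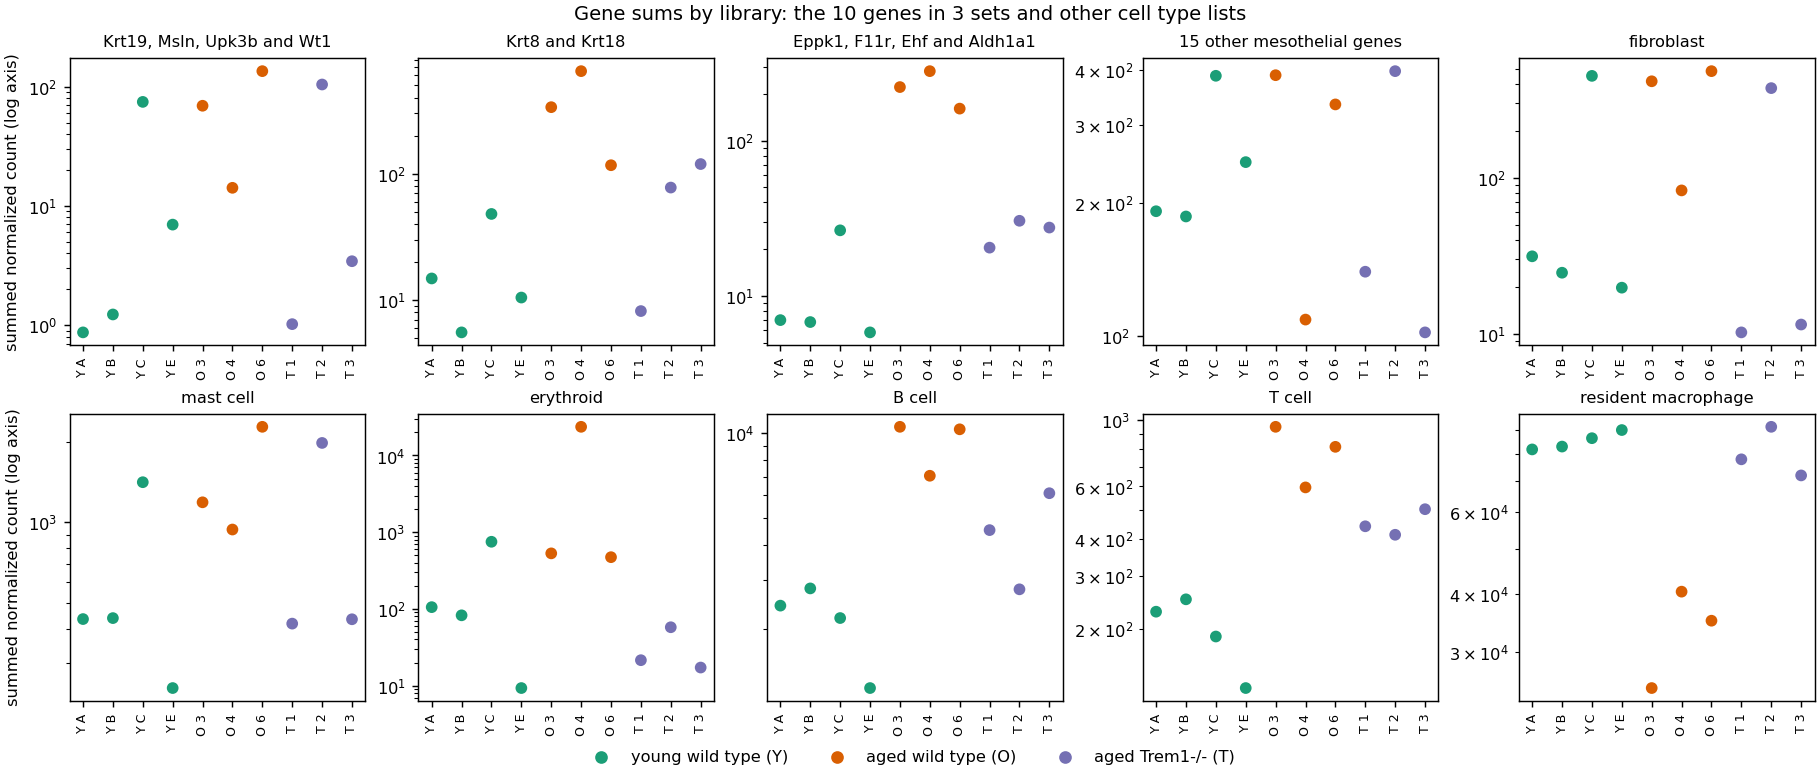
Summed normalized counts of 3 sets of the members and of 7 marker lists by library, each on its own log axis, with 1 point per library coloured by group (Y young wild type, O aged wild type, T Trem1-/-). The mesothelial and fibroblast lists are high in young C, aged wild-type 3 and 6 and Trem1-/- 2. The B and T cell lists are highest in the 3 aged wild-type libraries, and the erythroid list is highest in aged wild-type 4 (23658).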

How the data were processed

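RNA from primary mouse peritoneal macrophages had been sequenced in 10 libraries of 3 groups (4, 3 and 3). Per the submitters' processing notes, the tools were DESeq2 1.20.0, featureCounts 1.5.0-p3, STAR and fastp, on GRCm38, in settings not given in the sources used here. The authors deposited DESeq2-normalized counts (unit signal) per library with their mean, and for aged against young wild type a log2 fold change with its SE, a score (the Wald statistic) and a p-value with its adjusted value. Every deposited value was a whole multiple of 1 read within 1e-06, so reads were recovered (100% of values), at 2663744 to 5603498 per library. Intervals and floors cover counting error only.

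Values were tested as log2(normalized count + 1) with limma 3.58.1 (trended variance, R 4.3.3), for the 11506 genes whose mean normalized count was at least 10, all 10 libraries in 1 model, with Benjamini-Hochberg adjustment at 0.05. The filter, pseudocount, scaling, edgeR 4.0.16 and DESeq2 1.42.0 on recovered reads, the 2 groups alone and the left-out libraries were varied. The fit was tested on simulated data. Members and gene lists were chosen with earlier results of these data known. The rule for names was all members, at most the 4 genes of a list with the largest mean count, and the nearest profiles. Marveld2, Rdh11, Rarb, Epcam, Cdh1, Cldn7 and Pkp2 fall outside it and were named after their values were seen. Of the table's symbols 98.7% matched GENCODE M21.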

Additional observations from a re-analysis of the deposited data

Results flagged for a closer look

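In young wild type, the only group of more than 3 libraries, young C stood apart from the other 3 libraries by Dixon's ratio for 5 of the 10 members and 5 summed lists, and young E for 1 list. In young C Krt18 was at 14.4, Krt19 at 31.2, Msln at 7.21, Upk3b at 25.2 and Aldh1a1 at 8.41 normalized counts. Its summed level of the members was 149, of fibroblast genes 449, of endothelial genes 24.0, of mast cell genes 1411 and of erythroid genes 751. Young E was the lowest for the summed epithelial and junction genes, at 419.6. Of 24 sets of values examined 11 stood apart in this way. Chance gives about 1 in 20 for normally distributed values, a rate that need not hold for low and skewed counts. The sets are not independent, since 10 of the 11 are of the same library. The part of these other cell types in the member values was not tested.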

How the results depend on the processing

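Over the alternatives, 135 of 143 member values kept direction and call in aged against young wild type, 124 of 143 in Trem1-/- against aged wild type (19 lost the call) and 128 of 139 in Trem1-/- against young wild type (11 reversed). Of the members, 6 were called in the first comparison, 4 to 7 when leaving out 1 library and 2 with a minimum mean of 50, where only 2 members were tested. In the second, 5 were called, 1 to 5 when leaving out 1 library, 1 with a minimum mean of 50, and 3 without both young C and Trem1-/- 2, a setting chosen after seeing the data. Over all genes, the first comparison gave 3837 calls and 2753 to 4161 when leaving out 1 library. The second gave 2112, then 1174 with only the 2 groups, 1077 to 2800 when leaving out 1 library and 819 without both. The third gave 106, then 263 with no filter, 36 with a minimum mean of 50, 431 with DESeq2, 298 with only the 2 groups, 0 to 268 when leaving out 1 library (0 with limma without Trem1-/- 3, with 1268 at an unadjusted p under 0.05) and 18 without both. In the third comparison, leaving out 1 library turned the direction of Krt19 (-1.43 to 1.58), Upk3b (-0.55 to 1.92), Ehf (-0.81 to 0.33) and Aldh1a1 (-1.09 to 0.89), and without both libraries Ehf was at 0.55 and Aldh1a1 at -0.37. The cause was not tested. F11r in the second comparison lost its call at a pseudocount of 0.5 (0.0816 by limma). TMM scaling moved the median of all genes by 0.03 at most. No paired analysis was possible because the groups compared share fewer than 2 replicate numbers. Depth limits the low members: 3 reads are 1.85 to 3.84 normalized counts.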

Other observations

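Cyp26a1, which encodes an enzyme that degrades retinoic acid, was picked out after its values were seen. It was at 38.3, 36.9, 34.8 and 25.6 normalized counts in young A, B, C and E, 5.12, 319.7 and 4.49 in aged wild-type 3, 4 and 6, and 88.9, 3.20 and 13.8 in Trem1-/- 1, 2 and 3. Its highest library, aged wild-type 4, is the one in which Aldh1a1 was also highest (67.7), while the other 2 aged wild-type libraries held less of it than any young library.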
